A study of Macaca mulatta with 16 samples.

Results

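The subject here is the creatine kinases and adenine nucleotide enzymes of extraocular muscle, the muscles that move the eye, in the rhesus macaque. It comprises 8 genes: GATM and SLC6A8 for creatine supply, CKM, CKMT2 and CKB for creatine phosphorylation, AK1 for adenylate kinase, and AMPD1 and AMPD3 for AMP deaminase. Every probe set whose platform symbol names one of them was taken, including symbols inside a list of several genes. The 8 are among 19044 gene symbols on the arrays, and they have 14 of 22215 probe sets on the U133A array and 5 of 22577 on the U133B array, 19 of 44792 in all. A probe set is a group of short probes that report 1 transcript or a few related ones, and its value is 1 intensity per array.

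These genes keep ATP steady where it is used quickly. Creatine is made by GATM and a partner enzyme, enters muscle through the transporter SLC6A8, and is phosphorylated by mitochondrial creatine kinase, CKMT2; phosphocreatine then returns its phosphate to ADP through the cytosolic kinases, CKM in mature muscle and CKB in brain, smooth muscle and many other cells. AK1 turns ADP into ATP and AMP, and AMP deaminase removes that AMP as IMP, with AMPD1 as the skeletal muscle form and AMPD3 as a form of red blood cells and other tissues. The orbital layer of an extraocular muscle lies toward the bone of the orbit and holds small fibres rich in mitochondria, and the global layer lies toward the eyeball.

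All samples were from adult monkeys, and there were 4 groups with 2 arrays each on both array types, 16 arrays in all. The orbital layer and the global layer were taken by laser microdissection and their mRNA was amplified with T7 polymerase. Lateral rectus and medial rectus were taken whole and run without that amplification. Human arrays were used throughout, and having 2 arrays a group limits the precision. No label says that the arrays of a group came from separate animals, so the p-values speak of the spread among these arrays alone, which may be technical. The labels of U133A orbital layer replicate 1 conflict: by title it is orbital, by source name global, and the title was followed. On U133B, the source name of global layer replicate 1 does not say which layer it is.

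The 7 of 8 muscle fibre markers on U133A summed to between 511160 and 689197 units on every array, and all 7 were above the filter described next. CKM, itself a member, is among these 7, so the sum is not independent of the members. The 3'/5' ratio of ACTB, a measure of how far transcripts reach toward their 5' ends, was at least 5.30 in the orbital layer, at most 2.88 in the global layer and between 0.716 and 1.04 in whole muscle on U133A. For GAPDH the ratio overlapped between the layers, with 1.73 and 2.00 in the orbital and 2.92 and 1.497 in the global layer. A probe set was tested in a comparison where its mean log2 intensity reached that of the pooled median, 654 units on U133A and 803 on U133B. It was called where limma's adjusted p was under 0.05. In bulk RNA, fewer cells of a type and less RNA per cell cannot be told apart.

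Between the layers, the largest difference among the members was that of AMPD1, the AMP deaminase of skeletal muscle, which was 4.60-fold lower in the orbital than in the global layer. AK1 was lower in the orbital layer on both of its probe sets, CKM and CKMT2 were slightly lower, and CKB was higher. None of the 11 member probe sets tested on U133A was called by limma, against 0.409% of all 9532 tested, and 4 of the 11 had an unadjusted p under 0.05, against 905 of all. AMPD1 was called under several other settings given below. The arrays of the layers did not overlap in 7 of the 11, 2 higher and 5 lower in the orbital layer, while 41.9% of all probe sets did not overlap. The median log2 difference of the 11 was -0.32, and that of all probe sets was -0.04.

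AMPD1 gave 3219 and 4171 units on the orbital arrays. On the global arrays it gave 11636 and 24398 units. Both orbital arrays were below both global arrays, and the global arrays lay further apart from each other than the orbital ones. The log2 difference was -2.20 ± 0.36 (SE, n = 2 against 2; 95% interval -3.04 to -1.36), with an unadjusted p of 0.000322 and an adjusted p of 0.0663 in limma. It was the 10th lowest of the 9532 differences and the 46th by p. AMPD1 passed the threshold with array weights, adjusted p = 0.0427, and with all 4 groups in one fit, adjusted p = 0.0272. It also passed with the replicate block, which is given with the other settings, and without any 1 of the 4 arrays. Without orbital layer replicate 1, the array with conflicting labels, the log2 difference was -2.01 with an adjusted p of 0.00552. Over all settings the log2 difference ranged from -2.74 to -1.67 and the adjusted p from 0.000158 to 0.575. A model with 3 arrays takes the spread of the lone array to be like that of the other group. AMPD1 was not called under 7 of its 14 other settings. These were quantile normalization, both other floors, no filter, both other filters and variances without a trend. All calls on U133A also rose under settings where AMPD1 passed: from 39 to 44 with array weights, 46 with all 4 groups and 92 with the block.

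AMPD3, the other AMP deaminase, gave 899 and 1725 units in the orbital layer on its own probe set. In the global layer it gave 1748 and 879 units. The 2 groups covered the same range, and the log2 difference was 0.01 ± 0.44 (SE), which leaves room for a difference in either direction. A probe set shared between AMPD3 and CAND1.11 was below the filter in the layers, at 155 and 97.1 units in the orbital and 380 and 275 units in the global layer.

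AK1, the cytosolic adenylate kinase, gave 17915 and 17377 units in the orbital layer on its brighter probe set, 202587_s_at. In the global layer it gave 27492 and 38610 units. The orbital arrays lay close together and below both global arrays, and the log2 difference was -0.88 ± 0.24 (SE) with an adjusted p of 0.296. The second AK1 probe set, 202588_at, gave 707 and 1016 units in the orbital and 1419 and 2756 units in the global layer, a log2 difference of -1.22 ± 0.38 (SE) with an adjusted p of 0.362. Both probe sets thus had the lower values in the orbital layer, and neither passed the threshold. Their adjusted p ranged from 0.0563 to 0.639 and from 0.0815 to 0.764 over the other settings.

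Of the creatine kinases, CKM gave 91659 and 76118 units in the orbital layer and 103401 and 112724 units in the global layer. CKMT2, the kinase of the mitochondrial intermembrane space in striated muscle, gave 84432 and 73856 units in the orbital and 98895 and 104046 units in the global layer. For both genes all orbital arrays were below all global arrays by a small margin. The log2 differences were -0.37 ± 0.18 (SE) for CKM and -0.36 ± 0.17 for CKMT2, with adjusted p of 0.565 and 0.564. CKB ran the other way, with 4142 and 6085 units in the orbital and 2349 and 3296 units in the global layer. Its lowest orbital array was above its highest global array, a 1.80-fold difference or 0.85 ± 0.30 (SE) on the log2 scale, with an adjusted p of 0.434. Without orbital layer replicate 1 the log2 differences of CKM, CKMT2, CKB and the brighter AK1 probe set were -0.50, -0.46, 1.13 and -0.91, with adjusted p from 0.392 to 0.921.

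The genes of creatine supply had log2 differences from -0.32 to 0.29 between the layers on U133A, close in size to those of CKM and CKMT2. GATM, which makes the precursor of creatine, gave 2866 and 2308 units in the orbital and 2751 and 3576 units in the global layer on 216733_s_at. The ranges overlapped, and the log2 difference was -0.29 ± 0.27 (SE) with an adjusted p of 0.758. The second U133A probe set of GATM, 203178_at, gave 2396 and 1732 units against 2080 and 3131 units, with a log2 difference of -0.32 ± 0.31 (SE). On U133B, 1 of the 5 member probe sets was tested, GATM 235426_at, with 578 and 714 units in the orbital and 1308 and 1081 units in the global layer. Its groups did not overlap, as was so for 38.6% of all U133B probe sets, and its log2 difference was -0.89 ± 0.53 (SE) with an adjusted p of 0.743. It was not called, and 0.021% of all U133B probe sets were, with 738 of 9510 at an unadjusted p under 0.05.

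SLC6A8, the creatine transporter, gave 5039 and 5744 units in the orbital and 4374 and 4454 units in the global layer on 202219_at. The orbital arrays were above the global arrays by a small margin, and the log2 difference was 0.29 ± 0.24 (SE) with an adjusted p of 0.726. The probe set 210854_x_at gave 757 and 1111 units against 651 and 994 units, which overlap, and a log2 difference of 0.19.

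**Figure D1:**
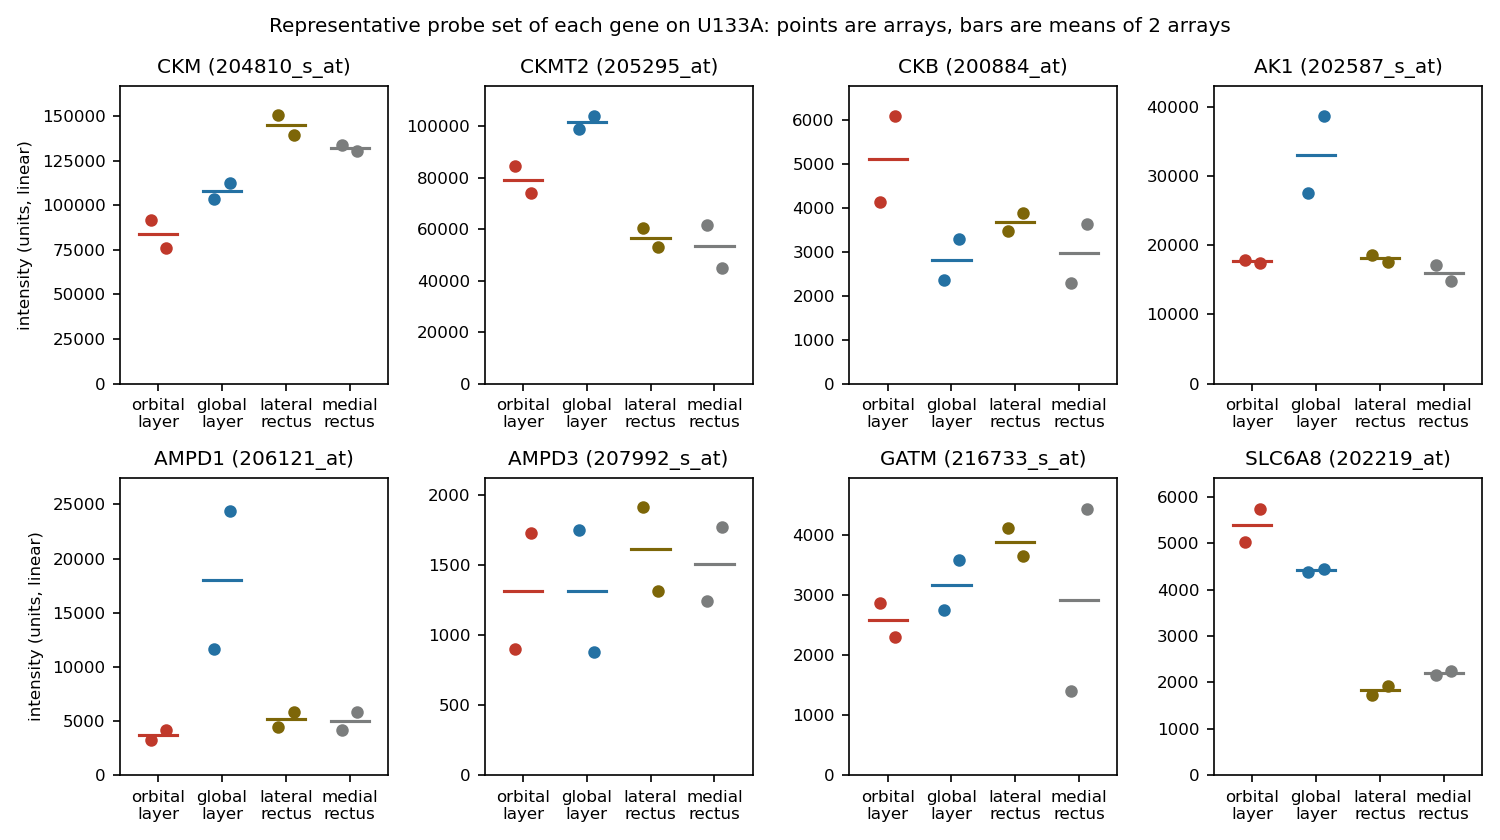
Intensity in units on a linear axis from 0 for the representative U133A probe set of each of the 8 genes; points are single arrays and bars are means of 2 arrays in the orbital layer, global layer, lateral rectus and medial rectus. AMPD1 and AK1 are highest on the 2 global layer arrays, while AMPD1 lies between 3219 and 5854 units on the other 6 arrays.

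**Figure D2:**
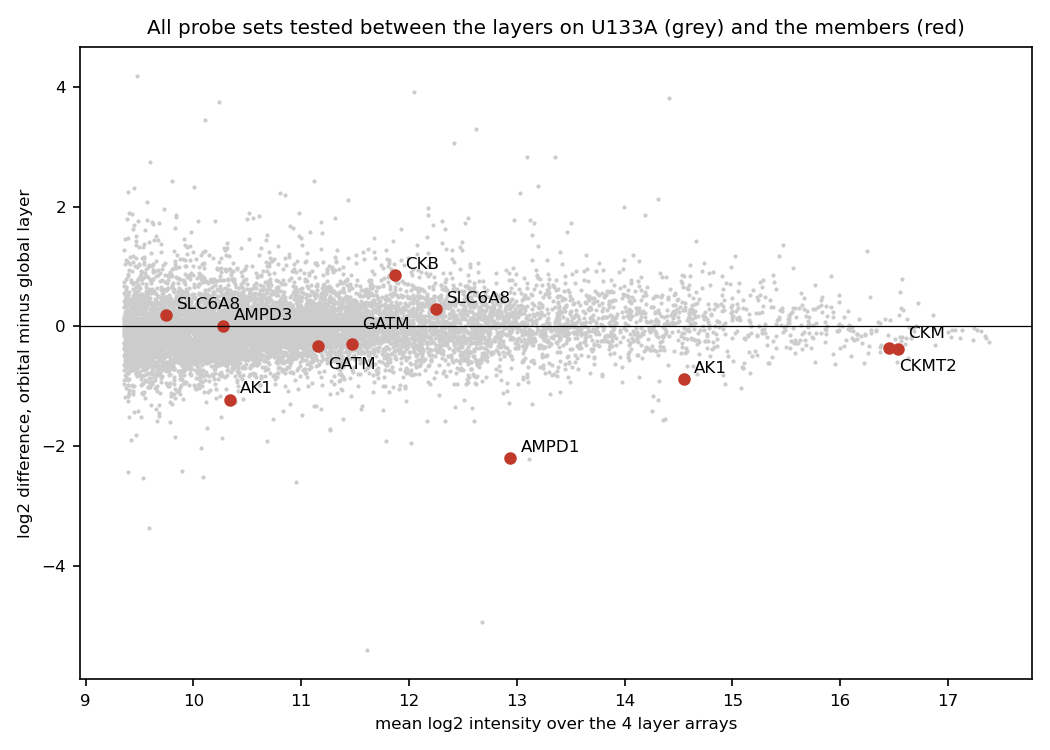
Log2 difference of orbital minus global layer on the vertical axis against the mean log2 intensity of the 4 layer arrays on the horizontal axis for all 9532 U133A probe sets tested (grey) and the 11 members among them (red). AMPD1 lies at -2.20, apart from the other members, which lie between -1.22 and 0.85.

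Markers of other cell types also differed between the layers on U133A. The 4 adipocyte markers, of which 3 were below the filter, summed to between 1120 and 2155 units in the orbital and between 3352 and 6605 units in the global layer. The 5 endothelium markers, 1 below the filter, summed to between 12450 and 13336 units against 16399 and 19855 units, while the sums for red blood cells, where AMPD3 is also expressed, ran from 20614 to 28735 units against 20341 to 26294 units. The smooth muscle and pericyte sum was higher in the orbital layer, at 37225 to 38764 against 34780 to 36047 units, and so was the fibroblast sum, at 212321 to 242092 against 179703 to 182921 units. Of the fibroblast markers COL3A1 and COL1A1 did not overlap between the layers, at log2 differences of 0.97 and 0.92. COL1A2 at -0.06, DCN at 0.16 and LUM at 0.04 overlapped. TAGLN and PDGFRB did not overlap, at 0.53 and 0.88, while ACTA2, MYH11 and RGS5 did. On U133B both sums overlapped between the layers. Among the 7 fibre markers, DES, the desmin gene, had the largest log2 difference at 1.29 ± 0.36 (SE), with an adjusted p of 0.316 and no overlap. The fast myosin MYH2 had a log2 difference of 0.80 ± 0.22 (SE) and the extraocular myosin MYH13 of -0.53 ± 0.18, with adjusted p of 0.303 and 0.391. The part of these markers, and of the higher ACTB ratio in the orbital layer, in the differences of AMPD1, AK1 and CKB was not tested.

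Between the whole muscles, the representative U133A probe sets of the 8 genes differed by between -0.64 and 0.27 on the log2 scale, medial minus lateral rectus. None of the 14 probe sets tested on U133A was called by limma, 1 had an unadjusted p under 0.05, and 5 had arrays that did not overlap, 1 higher and 4 lower in medial rectus. Over all 11907 probe sets 0% were called, 333 had an unadjusted p under 0.05 and 28.6% did not overlap. The median log2 difference of the 14 was -0.10, against 0.00 for all. On U133B the 1 member tested was not called, and 0% of all 11836 probe sets were, with 406 at an unadjusted p under 0.05 and 32.1% not overlapping.

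CKM gave 150823 and 139462 units in lateral and 133647 and 130503 units in medial rectus. CKMT2 gave 60330 and 53051 units against 61465 and 45027 units. Medial rectus was lower by a small margin for CKM and spanned the lateral range for CKMT2, with log2 differences of -0.14 ± 0.19 and -0.10 ± 0.22 (SE), the second of which was 0.018 after quantile normalization. CKB gave 3468 and 3876 units in lateral and 2280 and 3644 units in medial rectus, a log2 difference of -0.35 ± 0.30 (SE) over ranges that overlap.

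AMPD1 gave 4472 and 5854 units in lateral and 4170 and 5823 units in medial rectus. These ranges are nearly the same, and the 95% interval of the log2 difference, -0.66 to 0.55, excludes the size seen between the layers. AMPD3 gave 1914 and 1312 units in lateral and 1243 and 1769 units in medial rectus, again with overlap. AK1 on 202587_s_at gave 18586 and 17582 units against 17084 and 14862 units, lower in medial rectus on both arrays, with a log2 difference of -0.18 ± 0.19 (SE). The probe set shared between AMPD3 and CAND1.11 gave 972 and 905 units in lateral and 725 and 700 units in medial rectus, with no overlap and a log2 difference of -0.40 ± 0.50 (SE). The red blood cell markers on U133A summed to between 27143 and 34045 units in lateral and between 11487 and 14131 units in medial rectus. Of these, HBB had a log2 difference of -1.44 ± 0.24 (SE, adjusted p = 0.469 in limma) and AHSP one of 0.66 ± 0.44, and their part in the AMPD3 values was not tested.

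GATM on 216733_s_at gave 4124 and 3653 units in lateral and 1395 and 4440 units in medial rectus, so that a single medial array was low and the other was the highest of the 4. On 203178_at it gave 2061 and 2370 units against 2605 and 1974 units, and on U133B 235426_at 1331 and 753 units against 1184 and 2664 units, both with overlap, with log2 differences of 0.04 and 0.83 ± 0.67 (SE). SLC6A8 on 202219_at gave 1728 and 1930 units in lateral and 2153 and 2248 units in medial rectus, higher in medial rectus on both arrays with a log2 difference of 0.27 ± 0.28 (SE). The 1 member with an unadjusted p under 0.05 was 215812_s_at, which carries the symbols of SLC6A8 and of its pseudogene copies SLC6A10P and SLC6A10PB. It gave 1592 and 1401 units in lateral and 532 and 388 units in medial rectus, a log2 difference of -1.72 ± 0.51 (SE) with an unadjusted p of 0.00953 and an adjusted p of 0.999 in limma. By the human platform annotation it can report any of these copies, so it gives no separate value for SLC6A8. Whether the macaque carries them is not shown here.

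Between the layers and whole muscle, SLC6A8 had the largest differences among the members, and its probe sets moved in opposite directions. CKMT2 was 1.64-fold higher and CKM 1.46-fold lower in the layers. On U133A 5 of 12 member probe sets were called, 2 higher and 3 lower in the layers, near the 48.7% called among all 10533. The arrays did not overlap in 5 of the 12, and in 43.9% of all. These groups differ both in tissue, since whole muscle can hold tendon, nerve and larger vessels as well, and in amplification, and the 2 cannot be told apart. On U133A 3 of 5 smooth muscle and pericyte markers were called higher in the layers and 0 lower. Of 4 endothelium markers 0 were called higher and 2 lower, and MBP, a Schwann cell marker, was called lower. The part of these markers was not tested. On U133B GATM 235426_at was not called at a log2 difference of -0.61 ± 0.46 (SE) and an adjusted p of 0.296, while 42.8% of all probe sets were called and 40.7% did not overlap.

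The median of all U133A probe sets was -0.18 between layers and whole muscle, and 0.00 after quantile normalization, which also moved the share of called probe sets that were higher in the layers from 38.3% to 50.4%. On U133B these values were -0.21 and -0.04, and 47.8% and 55.7%. Differences relative to the median are therefore given as well for the member probe sets that were called.

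CKMT2 lay between 73856 and 104046 units on the 4 layer arrays and between 45027 and 61465 units on the 4 whole muscle arrays, with no overlap. Its log2 difference of 0.71 ± 0.15 (SE) passed with an adjusted p of 0.00279, and was 0.89 relative to the median. CKM lay between 76118 and 112724 units in the layers and between 130503 and 150823 units in whole muscle, again with no overlap. Its log2 difference of -0.54 ± 0.14 (SE) passed with an adjusted p of 0.00739 and was -0.36 relative to the median. CKM was no longer called without the filter, with an adjusted p of 0.0681, and its adjusted p ranged from 0.00411 to 0.0681 over the settings. The order of groups for CKM was lateral rectus, medial rectus, global layer and orbital layer, and for CKMT2 it was global layer, orbital layer and then the 2 whole muscles, which overlap; neither gene was called between the layers or between the whole muscles.

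SLC6A8 on 202219_at lay between 4374 and 5744 units in the layers and between 1728 and 2248 units in whole muscle, 2.43-fold higher in the layers. Its log2 difference was 1.28 ± 0.17 (SE) with an adjusted p of 0.000195, or 1.46 relative to the median. On 210854_x_at it lay between 651 and 1111 units in the layers and between 2676 and 3912 units in whole muscle, and on 213843_x_at between 371 and 853 against 2224 and 3713 units. These 2 probe sets were thus lower in the layers with no overlap, with log2 differences of -1.91 ± 0.22 and -2.23 ± 0.30 (SE) and adjusted p of 9.55e-05 and 0.000209. Relative to the median their log2 differences were -1.73 and -2.05. The suffix _x_at is the array maker's mark for probe sets whose probes may also match other transcripts. The shared probe set 215812_s_at, not tested here, lay between 143 and 271 units in the layers and between 388 and 1592 units in whole muscle. The 3 tested probe sets of the creatine transporter hence give no single direction for the gene between layers and whole muscle.

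AK1 was split in the same way, but without a call. On 202587_s_at the layers had a log2 difference of 0.50 ± 0.23 (SE) with an adjusted p of 0.0963, since the global arrays were high and the orbital arrays lay within the whole muscle range. This difference was -0.070 after quantile normalization and passed with all 4 groups in one fit, adjusted p = 0.0193, in a range of 0.0193 to 0.842. On 202588_at, with 1691 and 3659 units in lateral and 1544 and 4273 units in medial rectus, the difference was -0.96 ± 0.43 (SE) with an adjusted p of 0.0816. Leaving out orbital layer replicate 1 or 2 gave a call for the first, adjusted p = 0.0475 and 0.0411, and leaving out global layer replicate 2 or medial rectus replicate 1 gave one for the second, adjusted p = 0.0183 and 0.0474. Over its settings the adjusted p of the second ranged from 0.0183 to 0.217.

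AMPD1 in the global layer was above all whole muscle arrays, and in the orbital layer it was below or within them, so that the mean of the layers differed by 0.65 ± 0.51 (SE) with an adjusted p of 0.309. CKB, AMPD3 and GATM on 216733_s_at and 203178_at had log2 differences of 0.20, -0.30, -0.13 and 0.03, none of which was called. The direction of AMPD3 turned to 0.11 after quantile normalization. The ACTB ratio given above separated the layers from whole muscle on every array, and its part in the disagreement of SLC6A8 and AK1 probe sets was not tested.

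**Figure D3:**
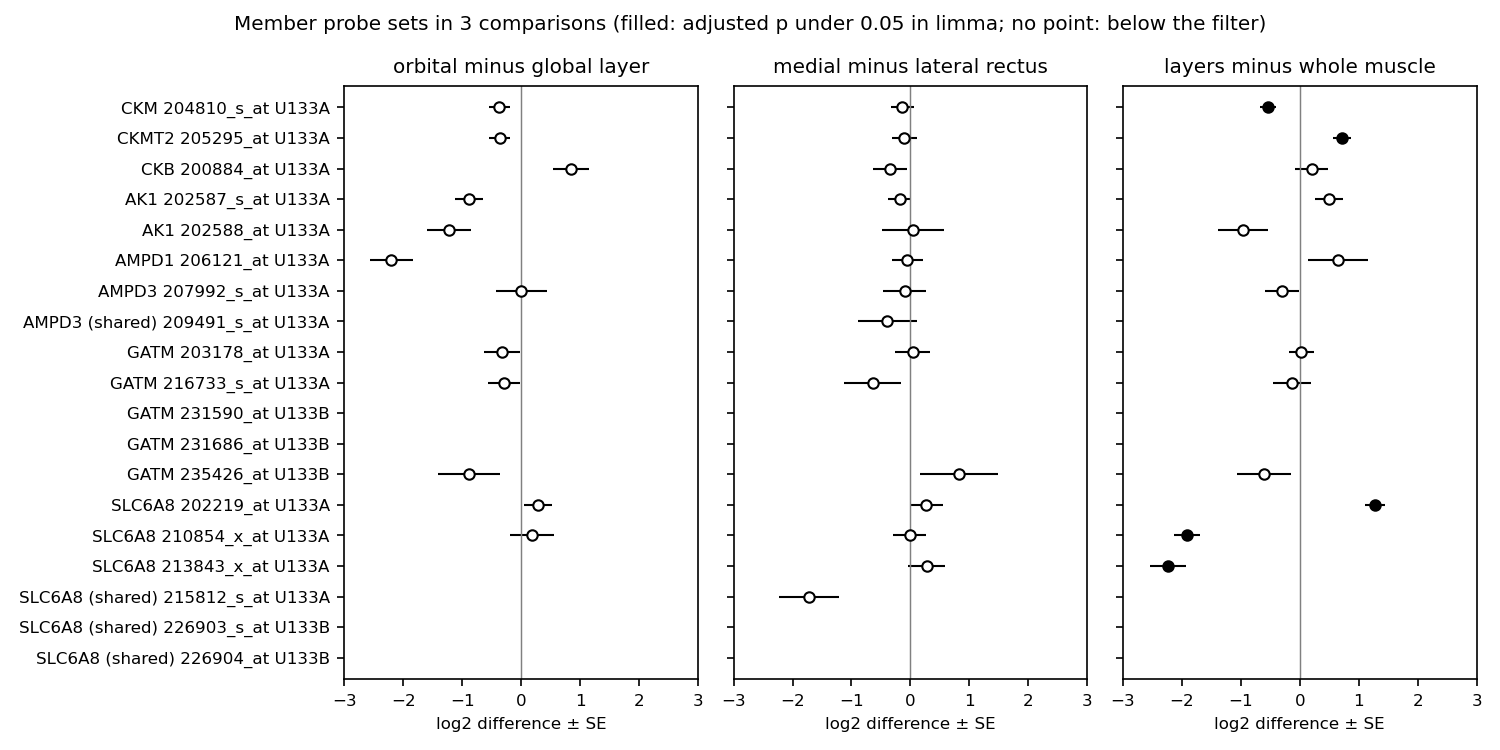
Log2 difference ± SE on the horizontal axis for the member probe sets (rows) in 3 comparisons: orbital minus global layer, medial minus lateral rectus, and layers minus whole muscle; filled points passed an adjusted p of 0.05 in limma, and rows without a point were below the filter. Filled points stand only in the third comparison, CKM, CKMT2 and 3 probe sets of SLC6A8, which lie on both sides of 0.

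**Figure D4:**
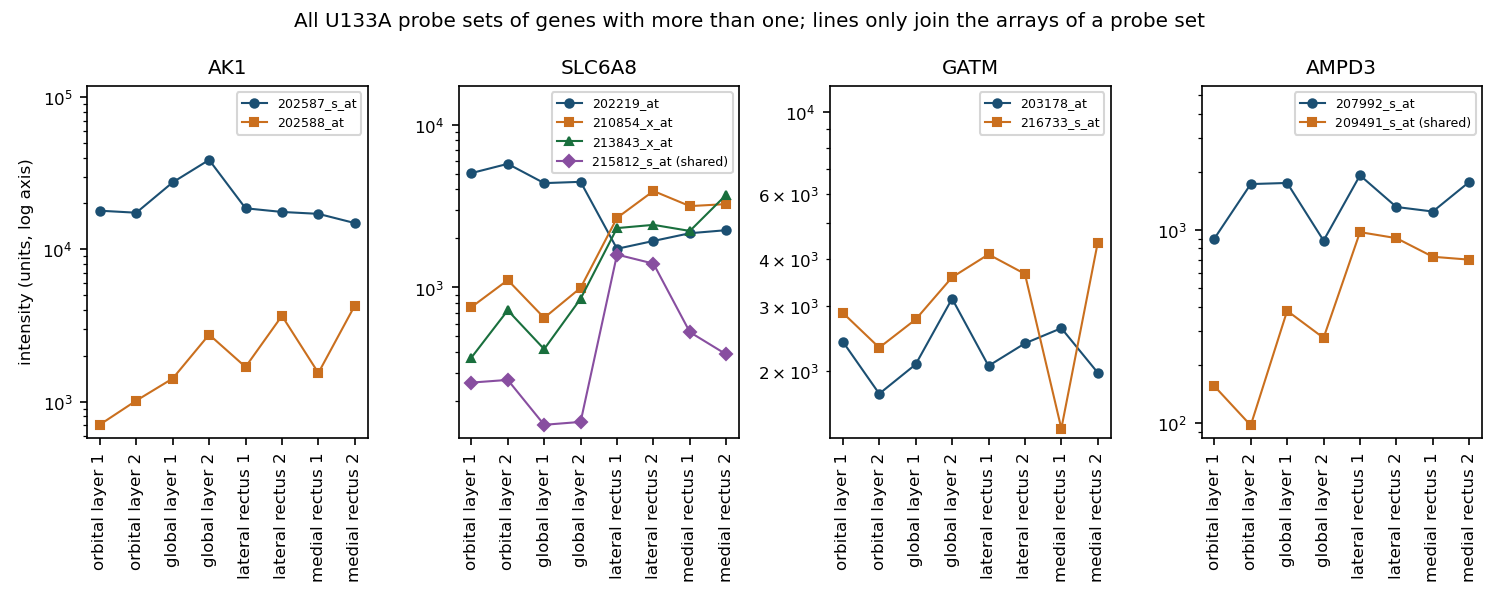
Intensity in units on a log axis for all U133A probe sets of AK1, SLC6A8, GATM and AMPD3 on each of 8 arrays; lines join the arrays of a probe set and carry no order. SLC6A8 202219_at is highest in the layers, and the other 3 probe sets that name SLC6A8 are highest in whole muscle.

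The probe sets left over were dim. On U133B, GATM 231590_at was at or under the floor of 218 units on 7 of 8 arrays and GATM 231686_at on 6, and the 2 probe sets shared between SLC6A8 and SLC6A10P reached at most 965 units. None of these 4 was tested in any comparison.

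Other genes of the same pathways, taken from lists and represented by their brightest probe set, had no call between the layers or between the whole muscles. On U133A all 5 tested genes of the list of other kinases and creatine synthesis were lower in the orbital layer, with a median of -0.36 against -0.04 for all probe sets. Among them were GAMT, the partner of GATM in making creatine, at -0.80 ± 0.26 (SE, adjusted p = 0.386) and the adenylate kinase AK6 at -1.13 ± 0.35 (adjusted p = 0.369), whose locus overlaps that of TAF9. Of 11 purine nucleotide genes 7 were lower, median -0.15, with adenosine kinase, ADK, at -0.89 ± 0.27 and ADSL, which completes the refilling of AMP from IMP, at -0.85 ± 0.38. Of 6 mitochondrial carriers and channels 5 were lower, median -0.27, among them VDAC1 at -0.42 ± 0.22 and the phosphate carrier SLC25A3 at -0.33 ± 0.18. In the list for AMP-activated kinase, which senses AMP, and the kinases that activate it, 3 of 6 genes were lower. There PRKAG1 stood at 0.60 ± 0.32 and PRKAG2 at -0.47 ± 0.30. Over all U133A probe sets tested, 46.0% were higher in the orbital layer, and the counts of the purine and AMP-activated kinase lists were near that share.

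On U133B the layers gave the same picture of uncalled values. ADSS1, the muscle adenylosuccinate synthase that acts on the IMP made by AMPD1, had a log2 difference of -0.65 ± 0.25 (SE, adjusted p = 0.624). The mitochondrial adenylate kinases AK3 and AK4 had differences of -0.64 ± 0.34 and -0.21 ± 0.24, and the nucleotidase NT5C3A one of -0.80 ± 0.28. SLC25A3 stood at -0.25 ± 0.25, CAB39, a scaffold of the kinase that activates AMP-activated kinase, at -0.74 ± 0.38, and the muscle subunit PRKAG3 at 0.31 ± 0.29.

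Between medial and lateral rectus, the list medians on U133A lay between -0.08 and 0.07. AK5, an adenylate kinase best known from brain, stood apart from the others at 1.95 ± 0.58 (SE, adjusted p = 0.999) on U133A, while its U133B probe set gave -0.56 ± 0.82. GAMT at -0.54 ± 0.33, PAICS, an enzyme of purine synthesis, at 0.74 ± 0.36 and XDH at 0.27 ± 0.24 were not called either. The carriers SLC25A3 at -0.19 ± 0.18 and SLC25A4 at -0.09 ± 0.19 differed by no more than about their SE, and PRKAG2 stood at -0.48 ± 0.27 and STK11, which activates AMP-activated kinase, at -0.54 ± 0.57. On U133B the values for AK4, ADSS1, NT5C2, SLC25A3, CAB39 and PRKAA2 were -0.38, -0.31, -0.42, -0.23, -0.46 and 0.44, none of them called.

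Between layers and whole muscle some of these genes passed on U133A, where 48.7% of all probe sets were called. The calls of 3 of 6 carriers and channels, 7 of 13 purine genes and 4 of 8 genes of the AMP-activated kinase list are near that share. In the list of other kinases and creatine synthesis 1 of 5 genes was called, AK4, which is below that share. The 6 mitochondrial carriers and channels were all higher in the layers, with a median of 0.37. Over all U133A probe sets tested, 42.7% were higher and the median was -0.18. Of the 6, VDAC3 at 0.47 ± 0.12 (SE) and the ADP/ATP translocases SLC25A5 at 0.85 ± 0.24 and SLC25A4 at 0.39 ± 0.12 were called. These 3 calls were lost after quantile normalization, with adjusted p of 0.0585, 0.209 and 0.470. Of 13 purine genes 2 were higher and 5 lower by the test. The salvage enzymes HPRT1 at 1.15 ± 0.16 and APRT at 1.30 ± 0.24 were higher. The breakdown enzymes XDH at -1.80 ± 0.19 and PNP at -1.96 ± 0.35 were lower. GART at -1.45 ± 0.36, PAICS at -1.30 ± 0.32 and NT5C2 at -0.87 ± 0.33 were also called lower. Salvage and breakdown did not split evenly, since ADK of salvage at 0.18 ± 0.30 and ADA of breakdown at 0.68 ± 0.54 were not called. XDH on U133B, at -0.40 ± 0.29, was not called either. Of 8 genes in the AMP-activated kinase list, CAB39, which is not a subunit of that kinase, was higher at 0.91 ± 0.20. The subunit genes PRKAG2 at -1.72 ± 0.23, PRKAB1 at -2.04 ± 0.27 and PRKAB2 at -1.18 ± 0.22 were lower.

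Some pathway genes disagreed between their U133A and U133B probe sets, as SLC6A8 and AK1 did within U133A. AK4, a mitochondrial adenylate kinase, was lower in the layers on U133A at -0.93 ± 0.23 (SE) and higher on U133B at 1.20 ± 0.22, and both calls were lost after quantile normalization, with adjusted p of 0.160 and 0.549. PRKAB2 was lower on U133A and higher on U133B at 1.54 ± 0.24. ADSS1 was higher at 2.24 ± 0.28 on U133B, and SLC25A3 at 0.80 ± 0.24, of which the second was lost after quantile normalization with an adjusted p of 0.561. The same SLC25A3 probe set was also on U133A, where it gave 0.07 ± 0.14 with overlap and was not called, adjusted p = 0.687 in limma. The nucleotidases NT5C1A at -0.92 ± 0.22 and NT5C2 at -1.11 ± 0.42 and PRKAG2 at -0.56 ± 0.20 were lower on U133B, but NT5C2 was no longer called under 11 of its 16 other settings and PRKAG2 under 8 of 17, with adjusted p of up to 0.241 and 0.0877. Of the lists, AK7, AK8, ADSS2 and SLC25A6 were among the genes not analysed here.

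**Figure D5:**
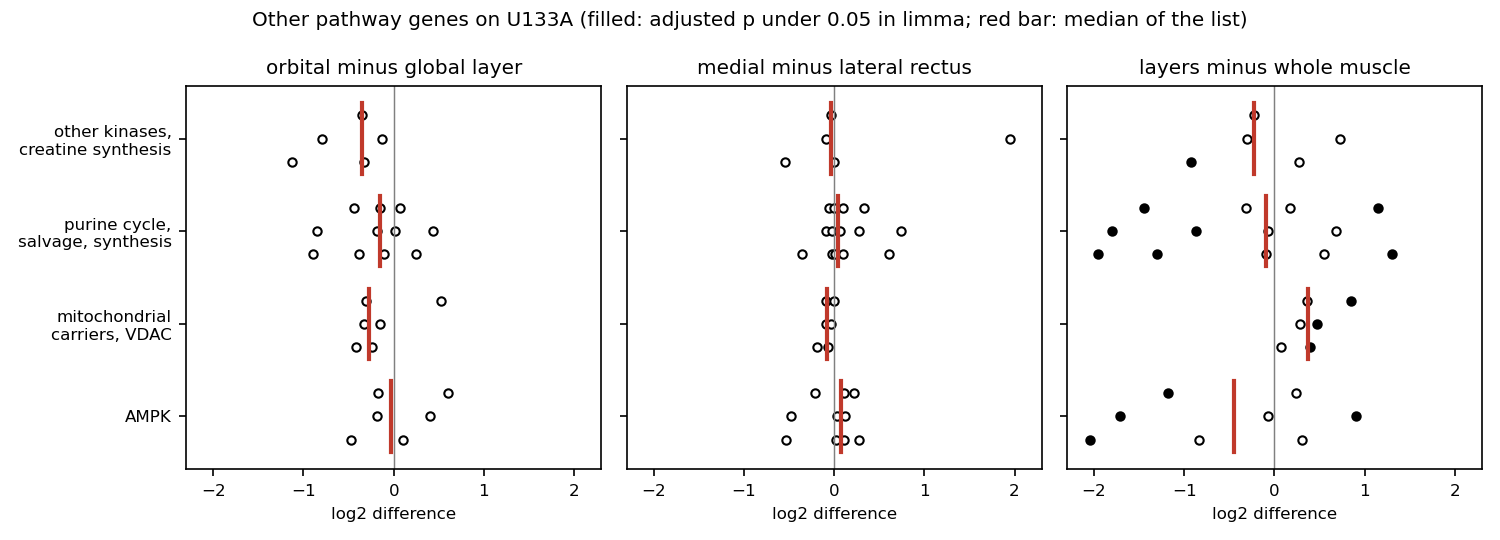
Log2 difference on the horizontal axis for the tested U133A genes of 4 pathway lists (rows) in 3 comparisons; points are genes, filled where the adjusted p was under 0.05 in limma, and red bars are list medians. The layers-against-whole-muscle panel alone holds filled points, and the 6 carriers and channels lie to the right of 0 there.

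The genes whose U133A pattern was most like that of each member were found by Pearson's r of log2 values over 8 arrays, after the means of the 4 layer and of the 4 whole muscle arrays were taken away; these arrays share their group differences and their scaling. For AMPD1 these were SLC25A12, the mitochondrial aspartate-glutamate carrier, at r = 0.996, ACTN3, the alpha-actinin of fast fibres, at 0.991 and the transcription factor MAF at 0.981. For AK1 they were PARK7 at 0.985, the endothelial gene VWF at 0.978 and PPP1R1A at 0.976. For CKM they were TMEM70 at 0.992, UBE2G1 at 0.980 and RTN4 at 0.980, and for CKMT2 DUS1L at 0.980, the insulin-degrading enzyme IDE at 0.974 and the mitochondrial outer membrane protein CISD1 at 0.969. CKB was most like HNRNPA1 at 0.992, HNRNPH3 at 0.975 and KLF2 at 0.972. GATM was most like ATP6V1H at 0.996, SLC6A8 like TBC1D12 at 0.954 and AMPD3 like DGCR2 at 0.964. With 8 arrays and so many probe sets searched, values this high are a description of these arrays only.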

How the data were processed

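Per the file columns, the deposited tables hold 1 linear intensity for each probe set and array. The authors' scaling shows in the 2% trimmed mean, which was near 1500 units on every array; the software behind the intensities is not given in the sources used here. Arrays were grouped by title and brought to 1 shared 2% trimmed mean. Values under the pooled 20th percentile (146 units on U133A, 218 on U133B) were raised to it before log2 was taken; printed units are from before that floor. Both tables lost their 68 control probe sets and were analysed apart. Comparisons used limma 3.58.1 in R 4.3.3 with an intensity trend, two-sided, and Benjamini-Hochberg adjustment over all probe sets kept in a table; the script was tested on simulated data. Other scalings, floors, filters, variance models, array weights, a replicate term and leaving out each array were tried as well. A member is represented by its single-symbol probe set with the highest mean, and its other probe sets are given too. List genes are named where called, up to 4 a list, or else the 2 with the smallest p. Members and lists were chosen with earlier results of these data known. Symbols are those of the platform annotation. Figures were drawn with matplotlib 3.10.9.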

Additional observations from a re-analysis of the deposited data

Results flagged for a closer look

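On U133A, 2 member values stood apart from the other 3 arrays of their comparison side. SLC6A8 213843_x_at gave 3713 units on medial rectus replicate 2 and between 2224 and 2424 on the other whole muscle arrays; on the log2 scale this gap is 0.832 of the whole range. GATM 216733_s_at gave 1395 units on medial rectus replicate 1 and between 3653 and 4440 on the others, a gap of 0.831 of the range on the log2 scale. On that scale both gaps just pass Dixon's limit for 4 values. In all, 26 sets of 4 arrays were looked at, and chance alone passes this limit in about 1 of 20.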

How the results depend on the processing

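Having 2 arrays a group leaves wide intervals: the 95% interval of AMPD1 between the layers spans -3.04 to -1.36, and dim probe sets depend on the floor and the filter. Where 1 array was left out, the lone array of its group was taken to vary like the others. Causes of the changes below were not tested, except where fewer probe sets or arrays entered by construction.

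Member calls between the layers on U133A went from 0 to 1, AMPD1, with array weights, with all 4 groups in one fit, with the replicate block and without any 1 array (1 to 1). Titles give the layers the same replicate numbers, but nothing says that they mark a shared animal. Deviations of same-numbered arrays correlated at 0.256 over probe sets on U133A and 0.132 on U133B, with 2 numbers only. With the replicate block AMPD1 had an adjusted p of 0.00593, within a range of 0.000158 to 0.575 over its settings, and the block changed no other member call; all calls between the layers went from 39 to 92 on U133A and from 2 to 26 on U133B. Titles leave some rectus arrays of each table without a number, and a number given here pairs nothing, so a fit with a block was not run between the whole muscles. Member calls between layers and whole muscle went from 5 to 3 with the filter at the 75th percentile, which drops the SLC6A8 probe sets ending in _x_at.

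Of all probe sets between the layers, the calls on U133A were 21 after quantile normalization, 0 with no filter, 12 with variances without a trend and 68 to 144 without 1 array, the last without global layer replicate 2. On U133B they were 0 after quantile normalization, with the floor at the 5th percentile, with no filter and with variances without a trend, 19 with the floor at the 40th percentile, 23 with the filter at the 75th percentile, 10 with all 4 groups in one fit and 0 to 28 without 1 array. Between medial and lateral rectus on U133A there were 7 with the filter at the 75th percentile and 0 to 9 without 1 array. Between layers and whole muscle there were 2513 on U133A and 2799 on U133B with that filter, against 5132 and 4510.

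Quantile normalization turned the sign of CKMT2 (0.018) and U133B SLC25A3 (0.062) between the whole muscles, and of AK1 202587_s_at (-0.070) and AMPD3 (0.11) between layers and whole muscle; none of these was called. Leaving out 1 array turned further log2 differences that were not called. Between the layers these ranged from -0.49 to 0.50 for AMPD3 and from -0.12 to 0.49 for SLC6A8 210854_x_at. Between medial and lateral rectus they ranged from -0.69 to 0.78 for AK1 202588_at, -0.16 to 0.24 for GATM 203178_at, -1.48 to 0.19 for GATM 216733_s_at, -0.33 to 0.12 for CKMT2, -0.30 to 0.19 for AMPD1, -0.37 to 0.18 for AMPD3, -0.29 to 0.26 for SLC6A8 210854_x_at and -0.091 to 0.65 for SLC6A8 213843_x_at. For the pathway genes there they ranged from -0.20 to 0.011 for SLC25A4, -1.30 to 0.23 for STK11, -0.71 to 0.092 for ADSS1, -0.78 to 0.010 for AK4, -1.61 to 0.48 for AK5 on U133B, -1.03 to 0.18 for NT5C2 and -0.15 to 1.04 for PRKAA2. Between layers and whole muscle they ranged from -0.033 to 0.42 for CKB, -0.13 to 0.16 for GATM 203178_at and -0.52 to 0.042 for GATM 216733_s_at. Over the member log2 differences, 532 values under other settings kept direction and call, 12 gained a call, 1 lost one and 26 turned. A filter on linear means, chosen after seeing the data, changed no member call.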
